A study of Homo sapiens with 9 samples.

Results

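The genes of the ATP-binding cassette (ABC) family were followed across 3 subclones grown from the BRAF-mutated human melanoma line SK-MEL-5. Members were the rows of the count table whose Ensembl ID mapped to a protein-coding gene named ABCA to ABCG plus a number, and 45 of the 60675 gene rows met this rule. The measurement was RNA sequencing of 9 libraries, 3 from each of the subclones SC01, SC07 and SC10. Each subclone descended from 1 cell and had been isolated by limiting dilution in the absence of drug. The labels state that the 3 were chosen by their first response to PLX-4720, an inhibitor of mutated BRAF, but not how any of them responded. No library was treated, and all 3 groups share the BRAF mutation, so the comparisons show how the clones differed before any drug. Each group is a single clone, so a difference between groups is a difference between clones. The labels give no culture or batch, so the p-values measure the spread between 3 libraries that may be technical repeats, and clone and culture batch cannot be told apart.

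ABC proteins bind and hydrolyse ATP through a pair of nucleotide-binding domains, and most use it to move a substrate across a membrane. Full transporters carry both nucleotide-binding domains and both membrane domains in 1 chain, while the shorter members carry 1 of each and must dimerise. The B, C and G subfamilies hold the drug efflux pumps, of which P-glycoprotein (ABCB1), the multidrug resistance proteins (ABCC) and ABCG2 are known for lowering the drug content of tumour cells. The A subfamily and part of the G subfamily move cholesterol and phospholipids, the D subfamily brings fatty acids into peroxisomes, and the E and F proteins lack membrane domains and act on ribosomes and translation. In melanoma, ABCB5 is known as a marker of a slowly cycling, drug-tolerant subpopulation.

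The family's values come from libraries of 30224066 to 39454087 counts, of which ABC genes took between 0.180% and 0.192%. At this depth 3 counts in a library correspond to 0.0773 to 0.0948 CPM (counts scaled to library size, here with the TMM factors of edgeR). All 6 melanocytic markers examined were expressed, with a summed level of 10724 to 11382 CPM in SC01, then 24353 to 24855 in SC07 and 15153 to 15372 in SC10. PMEL and DCT led this sum. Against SC01, 5 of the 6 were higher in each clone and TYRP1 was lower (log2 -0.98 in SC07 and -1.77 in SC10). Marker sums of keratinocytes (22.4 to 27.3 CPM, nearly all KRT10, with KRT1 at 0), fibroblasts (2.26 to 4.63 CPM), endothelium (8.34 to 24.3 CPM, led by KDR in SC01 and by VWF in SC07 and SC10) and immune cells (0.269 to 3.71 CPM, mostly PTPRC in SC07 and SC10) were far lower. The endothelial sum was highest in SC01 (23.0 to 24.3 CPM) and the immune sum in SC07 (3.19 to 3.71 CPM), and their part in the ABC results was not tested. SC10 replicate 3 stood apart from its clone, from which it differed over all genes by a chi-square of 10.6 and 11.7 for each degree of freedom, where SC10 replicates 1 and 2 differed by 2.56. Between clones these values were 62.4 to 197.

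The RefSeq promoter table on GRCh38.p14 held an entry for 35 of the 45 members, among them ABCB1, ABCA12 and ABCA1. The upstream sequences of these 3 are shown because ABCB1 had the largest fitted rise in SC07 against SC01 and ABCA12 the largest fall, and ABCA1 is the standard sterol-regulated member. Each is given 5′ to 3′ on the gene's own strand, from 250 bases before a RefSeq start, and stops where an exon of GENCODE 29 begins. Capitals mark the motifs searched on both strands. These were the CCAAT box (letters CCAAT, read as ATTGG in reverse), the GC box (letters GGGCGG), an E-box (letters CACGTG), the core of the M-box (letters CATGTG), the TATA box (letters TATAAA) and the LXR repeat, which is AGGTCA repeated after a gap of 4 bases.
ABCB1, chr7:87601079-87601134, minus strand: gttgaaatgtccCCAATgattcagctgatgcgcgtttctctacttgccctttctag
ABCA12, inner start, chr2:215032087-215032336, minus strand: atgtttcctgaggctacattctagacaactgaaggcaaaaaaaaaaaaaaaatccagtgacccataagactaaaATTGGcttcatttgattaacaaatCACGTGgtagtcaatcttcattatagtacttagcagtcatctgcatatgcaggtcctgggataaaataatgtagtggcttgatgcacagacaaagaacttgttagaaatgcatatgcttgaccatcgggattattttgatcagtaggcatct
ABCA1, chr9:104928238-104928405, minus strand: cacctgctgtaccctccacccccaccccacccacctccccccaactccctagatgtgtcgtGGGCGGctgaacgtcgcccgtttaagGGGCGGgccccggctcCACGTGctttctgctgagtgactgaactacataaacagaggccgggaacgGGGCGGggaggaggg
The ABCB1 stretch holds a CCAAT 238 to 234 bases before the RefSeq start. The reverse form recurs 79 to 75 bases before that start, in the part of the window not printed. The ABCA12 stretch holds the reverse CCAAT and a CACGTG, and that of ABCA1 holds 3 GGGCGG and a CACGTG. In the part of the ABCA1 window not printed, a TATAAA lies 31 to 26 bases before the start. ABCB1 and ABCA12 had 2 windows each. The windows not shown, at their outer starts (chr7:87713296-87713545 and chr2:215138627-215138876), held none of the motifs. The CCAAT box, in either orientation, occurred in 11 of 53 windows of 250 bases upstream of members (20.8%) and in 32.0% of all 35116 windows. CACGTG occurred in 9 member windows (17%) and in 6.34% of all, GGGCGG in 25 (47.2%) and in 42.6%, TATAAA in 6 (11.3%) and in 10.7%, and CATGTG in 3 (5.66%) and in 9.42%. The LXR repeat, searched as exact letters, was in 0 member windows and in 5 of all 35116 (0.0142%). Inexact forms of the repeat were not searched, so the 0 does not show that a member window lacks one. These matches describe letters in a window and were compared with no binding data.

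Most of the family was expressed, at levels that spanned several orders of magnitude. Of the 45 members, 43 had at least 1 count and 36 passed edgeR's filter on low counts and were tested. The other 9 (ABCA6, ABCB11, ABCC3, ABCC8, ABCC9, ABCC12, ABCD2, ABCG5 and ABCG8) had at most 32 counts over the 9 libraries, and ABCB11 and ABCC12 had 0. Among the tested members, 29 had every library above the filter's level of 0.289 CPM. The other 7 (ABCA4, ABCA12, ABCB1, ABCB4, ABCC6, ABCG1 and ABCG4) passed through only some of the clones, so that a difference was built into the passing of several of them. The 5 members with most counts held 53.0% of all 578697 ABC counts, and ABCF2 alone held 15.2%.

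**Figure D1:**
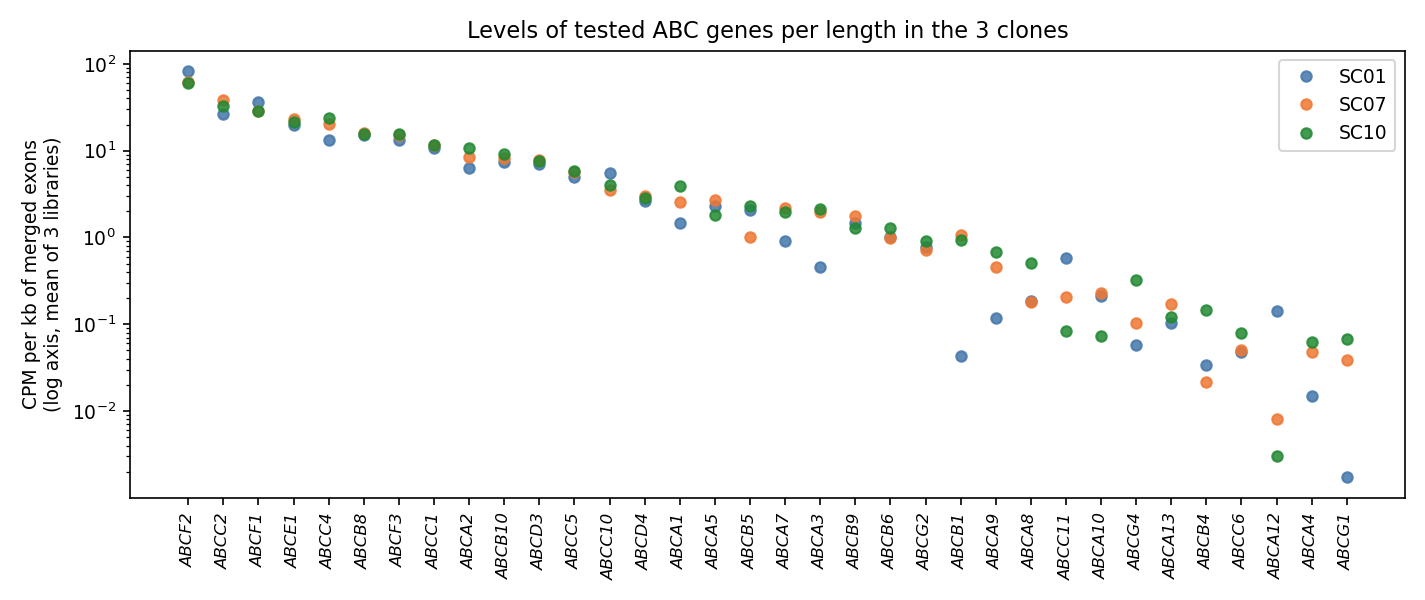
Mean level of each tested ABC gene reported here in each clone, as CPM per kilobase of merged exons (vertical, log axis), with genes ordered from the highest to the lowest mean over 9 libraries (horizontal) and 1 point per clone (mean of 3 libraries). ABCF2 (mean 68.2 CPM per kb) leads, and ABCB1, ABCA3, ABCA9, ABCA12, ABCB4, ABCC11, ABCG1 and ABCG4 are among the genes with wide spacing between clones.

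The clones differed in most ABC genes. With the adjusted p of edgeR held under 0.05, 32 of the 36 tested members differed among the 3 clones, against 76.3% of all 18009 genes tested. ABCB8, ABCC1, ABCC6 and ABCG2 did not pass. In SC07 against SC01, 22 members were higher and 6 lower (28 of 36, 77.8%), against 62.0% of all genes, 31.5% higher and 30.5% lower. In SC10 against SC01, 21 were higher and 8 lower (29 of 36, 80.6%), against 65.9% of all genes, 33.5% higher and 32.4% lower. These 2 comparisons share the SC01 libraries. In SC10 against SC07, 14 were higher and 7 lower (21 of 36, 58.3%), against 47.9% of all genes, 24.8% higher and 23.0% lower. Without the 7 members that passed the filter through some clones only, the counts were 18 higher and 5 lower, 16 and 7, and 12 and 7 of 29.

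The sizes of the changes were moderate for most members. The median log2 change of the tested members was 0.20 in SC07 against SC01, 0.26 in SC10 against SC01 and 0.06 in SC10 against SC07, where the median of all genes was -0.01 in each. Changes of 2-fold or more that passed were 6 upward and 3 downward in SC07 against SC01 (9.15% and 8.68% of all genes), 11 and 3 in SC10 against SC01 (11.2% and 8.30%), and 4 and 2 in SC10 against SC07 (5.84% and 2.79%). Scaling by library totals alone moved the median of all genes to -0.12 against SC01 in both clones, and the calls over all genes went from 5675 higher and 5487 lower to 4666 and 6841 for SC07, and from 6028 and 5836 to 5044 and 7094 for SC10. The ABC calls were then 15 higher and 6 lower in SC07 and 17 and 8 in SC10. Without SC10 replicate 3, 29, 30 and 17 members passed in the 3 pairs in the order above. Libraries of the clones compared did not overlap for 28 of 36 members in SC07 against SC01 (67.4% of all genes), 30 in SC10 against SC01 (69.1%) and 22 in SC10 against SC07 (53.4%). In all, 14 members passed in every pair of clones, 17 in 2 pairs, 2 in 1 pair and 3 (ABCB8, ABCC1 and ABCC6) in none.

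**Figure D2:**
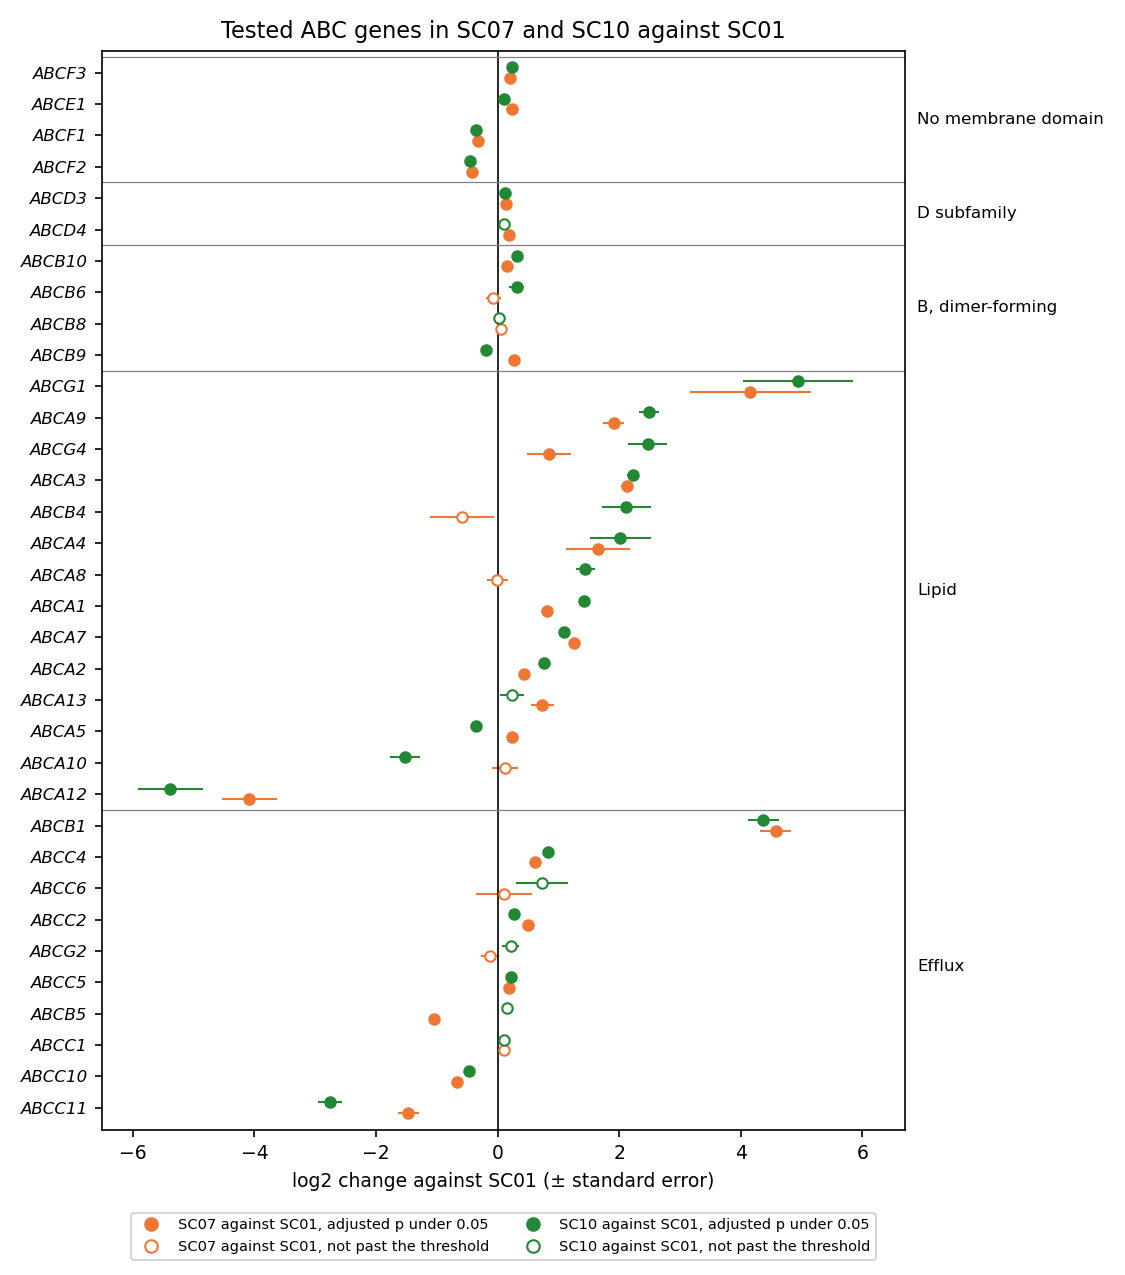
Fitted log2 change against SC01 (horizontal, ± standard error from edgeR) of the tested ABC genes reported here, grouped by role, in SC07 and SC10, with filled points for an adjusted p under 0.05. The largest rises are those of ABCB1 and ABCG1, the largest falls those of ABCA12 and ABCC11, and ABCA8, ABCA10 and ABCB4 changed past the threshold in SC10 but not in SC07.

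Among the drug and organic anion efflux genes, ABCB1 stood out by size. ABCB1 encodes P-glycoprotein, a full transporter that exports many hydrophobic drugs, and lies at chr7:87503633-87713323 on the minus strand. Its level was 0.330, 0.0316 and 0.389 CPM in the SC01 libraries (12, 1 and 13 counts), 5.97, 6.16 and 6.36 CPM in SC07 (196, 239 and 213 counts), and 5.86, 5.52 and 4.73 CPM in SC10 (215, 186 and 160 counts). All libraries of SC07 and SC10 therefore lay far above all those of SC01, and SC01 replicate 2 was near 0. The clone means were 0.250 ± 0.19, 6.16 ± 0.20 and 5.37 ± 0.58 CPM (SD, n = 3 here and below). The log2 change was 4.57 ± 0.26 (SE; adjusted p = 9.22e-14, edgeR) in SC07 and 4.37 ± 0.26 (adjusted p = 2.74e-13) in SC10, and the ratios of counts at equal depth were 24.0 (exact 95% interval 16.3 to 37.1) and 21.0 (14.2 to 32.4). SC10 lay below SC07 in every library, but the difference of -0.20 ± 0.16 did not pass (adjusted p = 0.326). In RNA from whole cultures, fewer expressing cells and less RNA per cell cannot be told apart.

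ABCB5, the melanoma-associated relative of ABCB1, followed another pattern. It lies at chr7:20615207-20777038 on the plus strand. Its level was 19.4, 19.2 and 19.0 CPM in SC01, 9.53, 9.74 and 8.78 CPM in SC07, and 20.3, 22.7 and 21.3 CPM in SC10. SC07 was lowest in every library, and SC10 lay just above SC01 without overlap. ABCB5 fell by 1.04 ± 0.076 (log2) in SC07 against SC01 (adjusted p = 2.06e-12, edgeR), a ratio of 0.487, and was higher in SC10 than in SC07 by 1.19 ± 0.075 (adjusted p = 3.00e-13). The difference between SC10 and SC01 was 0.16 ± 0.071 and did not pass (adjusted p = 0.0552), while limma-voom put it at 0.0473 and a fit of these 2 clones alone at 0.0456. Per kilobase of merged exons the 2 genes were at like levels in SC07 (1.06 CPM per kb for ABCB1 and 1.01 for ABCB5), whereas in SC01 ABCB5 stood at 2.08 and ABCB1 at 0.0431 CPM per kb.

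**Figure D3:**
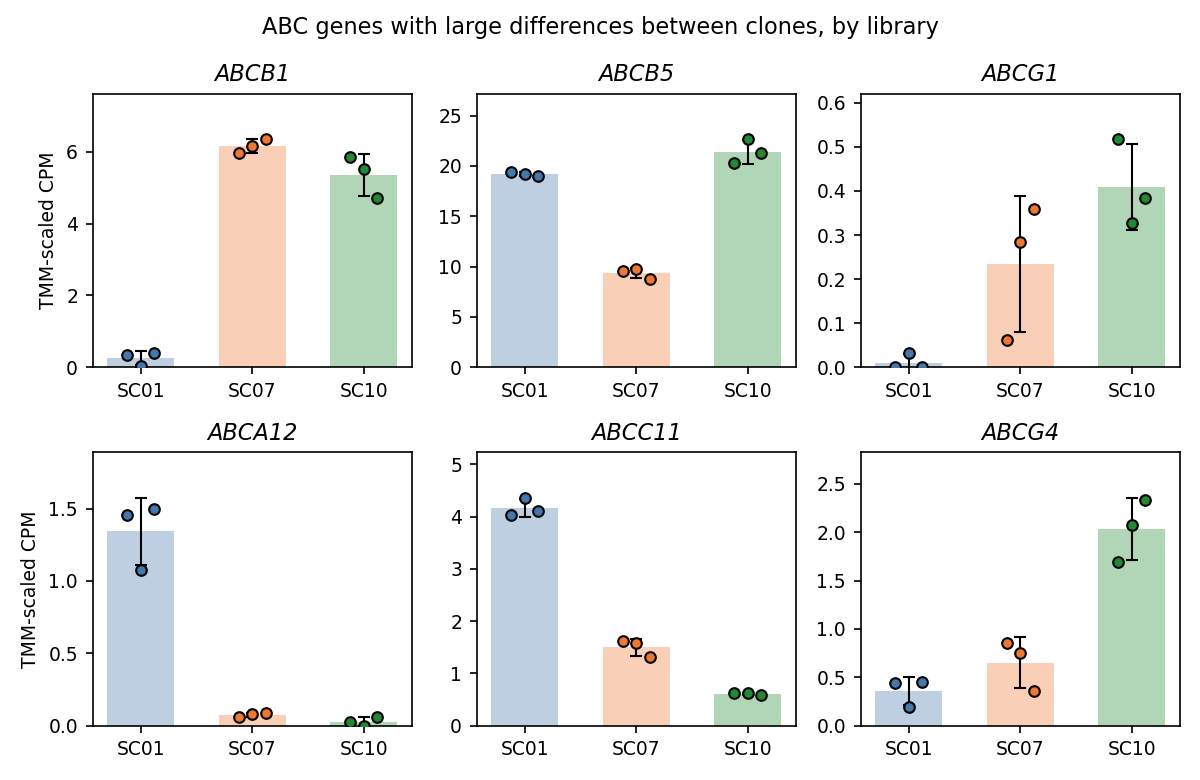
TMM-scaled CPM (vertical, from 0) of 6 ABC genes in the 3 libraries of each clone, where points are libraries, bars are means and error bars are ± SD (n = 3). ABCB1 lies between 4.73 and 6.36 CPM in SC07 and SC10 and at most at 0.389 in SC01, ABCB5 is lowest in SC07, ABCA12 and ABCC11 are highest in SC01, and ABCG1 stays under 0.6 CPM everywhere.

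The organic anion pumps of the C subfamily changed in both directions. ABCC2, which exports glutathione and glucuronide conjugates, was the transporter with the highest level per length (mean 32.4 CPM per kb). It measured 210, 208 and 211 CPM in SC01, 297, 303 and 294 in SC07, and 256, 262 and 241 in SC10, so that the 3 clones were fully separate. Its log2 change was 0.51 ± 0.042 in SC07 and 0.27 ± 0.042 in SC10, and SC10 lay below SC07 by -0.23 ± 0.042 (adjusted p = 3.63e-05). ABCC4, a pump for cyclic nucleotides and nucleotide analogues, measured 109, 115 and 116 CPM in SC01, 174, 173 and 175 in SC07, and 207, 210 and 192 in SC10. The clones did not overlap, and ABCC4 was higher by 0.61 ± 0.045 in SC07 and 0.84 ± 0.045 in SC10. ABCC5, a nucleotide analogue pump, was higher than in SC01 by 0.19 and 0.22 in SC07 and SC10, and neither passed when libraries were scaled by totals.

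ABCC11, a lipophilic anion pump known for the earwax type, fell in steps from SC01 to SC07 to SC10. Its level was 4.04, 4.36 and 4.10 CPM in SC01, 1.61, 1.57 and 1.31 in SC07, and 0.627, 0.623 and 0.591 in SC10, with no overlap between any pair of clones. The log2 changes were -1.47 ± 0.17 in SC07 and -2.76 ± 0.19 in SC10 against SC01, and -1.29 ± 0.22 between SC10 and SC07 (adjusted p = 1.73e-05). The ABCC11 exon bases are overlapped at 5.23%, with LONP2 on the opposite strand as the main overlapping gene. The neighbouring member ABCC12, 10.9 kb from ABCC11, had 0 counts in every library. ABCC10, a pump for taxanes among other drugs, was also highest in SC01, at 45.0 ± 1.5 CPM against 28.4 ± 0.66 in SC07 (log2 -0.66) and 32.4 ± 1.9 in SC10 (log2 -0.47).

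The remaining efflux genes showed little difference. ABCC1, the first multidrug resistance protein described, measured 78.8 to 85.7 CPM in SC01, 87.2 to 88.8 in SC07 and 82.1 to 91.3 in SC10, and passed in no pair. It did pass against SC01 in SC07 and in SC10 once SC10 replicate 3 was left out (adjusted p = 0.0238 and 0.00165, edgeR). ABCG2, a dimer-forming pump that exports many kinase inhibitors, measured 3.82 to 4.01 CPM in SC01, 3.17 to 4.07 in SC07 and 3.80 to 5.10 in SC10. The clones overlapped, and the adjusted p of 0.045 for SC10 against SC07 (log2 0.34) was lost with DESeq2 (0.118), limma-voom (0.0561), the replicate block (0.0557) and without SC10 replicate 3 (0.106). ABCC6, a low-count member at 0.274 to 0.920 CPM, passed in no pair, and passed in SC10 against SC01 without SC10 replicate 3 (log2 1.06, adjusted p = 0.0343, edgeR). Its pseudogenes ABCC6P1 (6, 15 and 75 counts in SC01, SC07 and SC10) and ABCC6P2 (4, 0 and 42) are near copies, and how reads were shared among them is not given, so ABCC6 is uncertain. ABCC3 had 2, 0 and 4 counts in the 3 clones, at most 3 in a library.

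By count, the efflux group of 12 had 10 tested members, of which 4 were higher and 3 lower in SC07 against SC01, 4 and 2 in SC10 against SC01, and 4 and 2 in SC10 against SC07. Of all genes, 62.0%, 65.9% and 47.9% passed in these pairs, so the efflux counts are near the background. The group's median log2 changes were 0.10, 0.22 and 0.11. Its summed level was 535 ± 10, 675 ± 3.1 and 676 ± 32 CPM in SC01, SC07 and SC10. ABCC2 and ABCC4 held most of this sum, and ABCB1 added at most 6.36 CPM in any library.

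The lipid transporters that changed were mostly higher in SC07 and SC10 than in SC01. Of 18 members, 14 were tested. In SC07 against SC01, 10 were higher and 1 lower (31.5% and 30.5% of all genes), with a median log2 change of 0.77. In SC10 against SC01, 10 were higher and 3 lower (33.5% and 32.4% of all genes), with a median of 1.43. At least 2-fold higher were 9 of them, against 11.2% of all genes, and these include ABCA4, ABCB4, ABCG1 and ABCG4. In SC10 against SC07, 6 were higher and 3 lower (24.8% and 23.0% of all genes), with a median of 0.35. Of the 7 members that passed the filter through some clones only, ABCA4, ABCA12, ABCB4, ABCG1 and ABCG4 are in this group, so these counts and medians are descriptions. The summed level was 140 ± 3.3, 209 ± 2.7 and 243 ± 21 CPM in SC01, SC07 and SC10, where SC10 replicate 3 (218 CPM) lay below the other SC10 libraries (255 and 256).

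ABCA1, which loads cellular cholesterol and phospholipid onto apolipoprotein A-I, measured 16.6, 16.8 and 15.9 CPM in SC01, 29.7, 30.3 and 26.2 in SC07, and 45.8, 48.6 and 37.3 in SC10. The 3 clones were separate and ordered SC01, SC07, SC10. Its log2 change against SC01 was 0.81 ± 0.086 in SC07 and 1.42 ± 0.084 in SC10, and SC10 exceeded SC07 by 0.61 ± 0.080 (adjusted p = 2.14e-06). ABCG1, a dimer-forming transporter that passes cholesterol to HDL particles, lies at chr21:42199689-42297244 on the plus strand and was barely detected. It had 0, 1 and 0 counts in SC01, 2, 11 and 12 in SC07, and 19, 11 and 13 in SC10. Every SC07 and SC10 library exceeded every SC01 library, but SC07 and SC10 overlapped and SC07 replicate 1 (0.0609 CPM) was under the level of 3 counts. The means were 0.0105 ± 0.018, 0.234 ± 0.15 and 0.409 ± 0.098 CPM. The ratio of counts to SC01 was 24.1 in SC07 (exact 95% interval 3.95 to 990) and 41.8 in SC10 (7.12 to 1690), so its size is poorly fixed. ABCG1 had 0, 1 and 3 libraries above the low-count filter in SC01, SC07 and SC10. It was thus tested through SC10, where it was highest, and a difference from SC01 was built in. With that limit, the tests passed against SC01 (adjusted p = 0.000705 and 2.43e-05, edgeR) and not between SC10 and SC07 (log2 0.79 ± 0.50, adjusted p = 0.209). Leaving out the SC01 library with the single count raised the fitted log2 change from 4.16 to 6.06 in SC07 and from 4.94 to 6.86 in SC10. With limma-voom the changes were 3.28 and 4.29, and the fit of SC01 and SC07 alone left ABCG1 untested.

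ABCG4, a relative of ABCG1 that also exports sterols, was clearly highest in SC10. It measured 0.439, 0.190 and 0.449 CPM in SC01, 0.853, 0.747 and 0.358 in SC07, and 1.69, 2.08 and 2.33 in SC10. SC10 was separate from both other clones, which overlapped each other. The log2 change was 2.47 ± 0.32 in SC10 against SC01 and 1.63 ± 0.29 against SC07. The difference of SC07 from SC01 (log2 0.84, adjusted p = 0.0476, edgeR) was lost under several settings, among them DESeq2 (0.0935), limma-voom (0.0918), scaling by totals (0.0852), the replicate block (0.0569) and without SC01 replicate 2 (0.226). The sterol pair ABCG5 and ABCG8, which work only as a heterodimer, had at most 8 counts per clone.

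ABCA3, which fills the surfactant-storing lamellar bodies of the lung with phospholipid, rose in both SC07 and SC10. Its level was 3.54, 3.51 and 3.62 CPM in SC01, 15.5, 15.6 and 15.5 in SC07, and 16.3, 17.7 and 15.9 in SC10. The SC10 libraries lay just above those of SC07, and SC01 was lowest. The log2 changes against SC01 were 2.12 ± 0.091 and 2.22 ± 0.091, or 4.36-fold and 4.67-fold, and the SC10 and SC07 values gave 0.10 ± 0.076 (adjusted p = 0.309). ABCA7, a phospholipid transporter linked to phagocytosis, measured 7.88, 7.81 and 7.33 CPM in SC01, 17.4, 18.6 and 19.1 in SC07, and 17, 17.7 and 14.6 in SC10. SC01 was lowest without overlap, and the changes were 1.26 ± 0.086 in SC07 and 1.10 ± 0.087 in SC10. ABCA2, a transporter of the endolysosome, was higher than in SC01 by 0.43 in SC07 and 0.77 in SC10, and ABCA4, the retinoid flippase of photoreceptors, rose from 13 counts in SC01 to 43 and 55 (log2 1.65 and 2.02). The SC07 change of ABCA4 did not pass without SC01 replicate 3 (adjusted p = 0.0602).

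ABCA12, the lipid transporter of keratinocyte lamellar granules at chr2:214931542-215138428, went the other way. It measured 1.46, 1.07 and 1.5 CPM in SC01, 0.0609, 0.0773 and 0.0896 in SC07, and 0.0272, 0 and 0.0591 in SC10. The SC01 libraries lay above all others, and the SC07 and SC10 libraries held at most 3 counts each. The clone totals were 137, 8 and 3 counts, and SC01 exceeded SC07 by a count ratio of 17.7 (exact 95% interval 8.76 to 41.9) and SC10 by 46.9 (15.7 to 230). ABCA12 had 3, 0 and 0 libraries above the low-count filter in SC01, SC07 and SC10, so it was tested through SC01 and a difference was built in. The fitted changes were -4.08 ± 0.45 (adjusted p = 8.44e-09, edgeR) and -5.38 ± 0.54 (adjusted p = 9.80e-10), the latter -6.24 without SC10 replicate 3. The keratinocyte marker sum, nearly all KRT10, stood at 22.5 to 25.2 CPM in SC01, 22.4 to 22.9 in SC07 and 23.6 to 27.3 in SC10. Of the low markers in it, DSP, a desmosome protein, was lower than in SC01 in both clones (log2 -1.22 and -1.78, adjusted p = 0.00353 and 0.000134, edgeR), at means of 0.965, 0.418 and 0.276 CPM. KRT14, a basal keratin, was higher in SC07 (2.49) and lower in SC10 (-3.28), at 0.220, 1.23 and 0.0197 CPM. KRT1 was at 0 and KRT5 at 0 in SC01 and SC10, and the part of these markers in the ABCA12 result was not tested. ABCA13, another long A-subfamily protein, was higher in SC07 than in SC01 (log2 0.74) and did not pass in SC10 (0.24, adjusted p = 0.285). Its difference between SC10 and SC07 (-0.50, adjusted p = 0.0247, edgeR) was lost with DESeq2 and without SC10 replicate 3.

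Neighbouring members on chromosome 17 did not share 1 pattern. ABCA8, ABCA9, ABCA6, ABCA10 and ABCA5 lie in this order on the minus strand, with gaps of 19.1, 17.6 and 5.3 kb and an overlap of ABCA10 with ABCA5. ABCA8, a cholesterol and taurocholate exporter, measured 1.98, 2.09 and 2.16 CPM in SC01, 1.74, 2.47 and 1.94 in SC07, and 5.75, 6.11 and 5.05 in SC10. It was thus high in SC10 only, with a log2 change of 1.44 ± 0.15 against SC01 and 1.45 ± 0.15 against SC07. ABCA9 measured 1.43, 0.980 and 0.868 CPM in SC01, 4.26, 4.07 and 4.12 in SC07, and 6.62, 5.99 and 5.91 in SC10. It rose in both clones, by 1.91 ± 0.17 and 2.48 ± 0.16. Its exon bases are overlapped at 5.84%, with the antisense gene ABCA9-AS1 as the main overlapping gene.

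ABCA10, next along, measured 1.76, 1.80 and 1.77 CPM in SC01, 2.04, 2.17 and 1.58 in SC07, and 0.490, 0.742 and 0.620 in SC10. It was low in SC10 without overlap, by -1.52 ± 0.24 against SC01 and -1.65 ± 0.24 against SC07, opposite in sign to ABCA8. ABCA5, a lysosomal lipid transporter, was the most abundant of the 5 at 30.3 ± 1.4, 35.6 ± 3.0 and 23.6 ± 1.2 CPM, and fell in SC10 by 0.36 against SC01 and by 0.59 against SC07 on the log2 scale. ABCA5 and ABCA10 share 2.42% and 3.78% of their exon bases with each other. ABCA6 was not tested, with 10, 15 and 7 counts in the 3 clones.

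**Figure D4:**
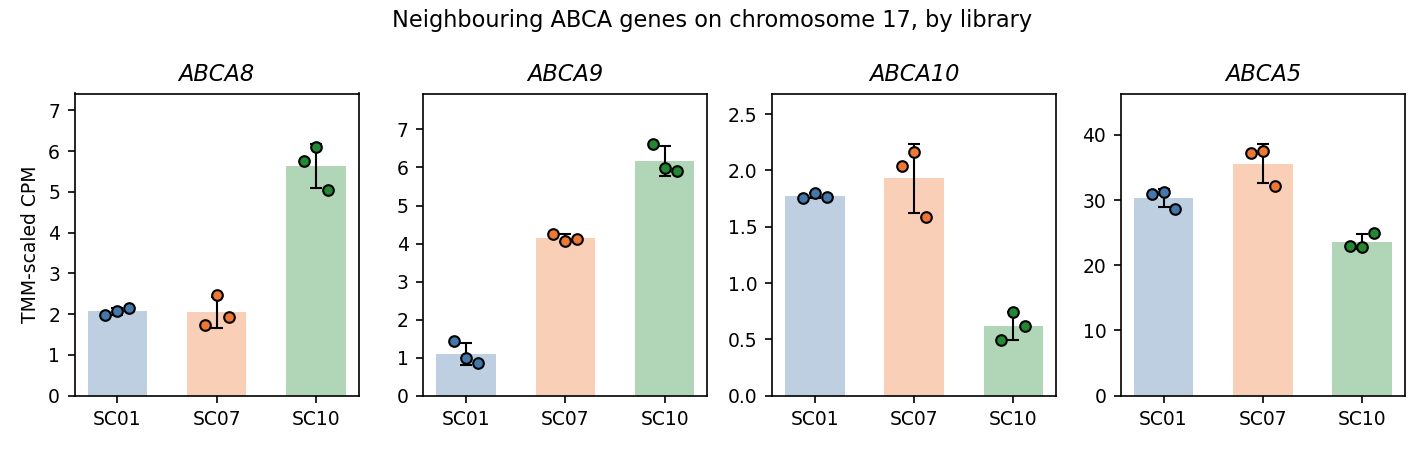
TMM-scaled CPM (vertical, from 0, each panel with its own scale) of 4 neighbouring ABCA genes of chromosome 17 in the 3 libraries of each clone, where points are libraries, bars are means and error bars are ± SD (n = 3). In SC10, ABCA8 (5.05 to 6.11 CPM) and ABCA9 (5.91 to 6.62 CPM) are at their highest and ABCA10 (0.490 to 0.742 CPM) and ABCA5 at their lowest.

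The pair ABCB4 and ABCB1 on chromosome 7, separated by 23.2 kb, also diverged. ABCB4, the phosphatidylcholine flippase of bile, measured 0.137, 0.316 and 0.329 CPM in SC01, 0.0913, 0.206 and 0.209 in SC07, and 1.12, 0.712 and 1.57 in SC10. SC10 was above both other clones, and SC01 and SC07 overlapped at or under 0.329 CPM. The log2 change was 2.12 ± 0.40 in SC10 against SC01 and 2.70 ± 0.43 against SC07, while SC07 against SC01 gave -0.58 ± 0.53 (adjusted p = 0.353). ABCB1 was thus high in both SC07 and SC10, and ABCB4 in SC10 alone of the 3 clones. ABCB11, the bile salt export pump, had 0 counts, which allows at most 3 counts in a library.

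Among the dimer-forming B members of mitochondria and lysosomes, ABCB10, a mitochondrial protein of haem synthesis, rose by 0.16 in SC07 and 0.32 in SC10. The SC07 change did not pass with scaling by totals (adjusted p = 0.391, edgeR) or without SC01 replicate 3 (0.0715). ABCB9, a lysosomal peptide transporter, was higher in SC07 (0.27) and lower in SC10 (-0.19) than in SC01, and the SC10 change was lost with DESeq2. Its exon bases are overlapped at 24.5%, with a gene on the opposite strand as the main overlapping gene. ABCB6, a porphyrin transporter, has 54.7% of its exon bases overlapped, with a gene on the same strand as the main overlapping gene. It had a log2 change of 0.31 in SC10 that was lost with DESeq2, with scaling by totals and without SC10 replicate 3. ABCB8 (142 ± 1.1, 148 ± 10 and 144 ± 3.8 CPM) passed in no pair.

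In the D subfamily, ABCD3, an importer of fatty acids into peroxisomes, was higher than in SC01 by 0.13 and 0.12, and ABCD4, a lysosomal protein of cobalamin release, by 0.18 in SC07, and all 3 of these calls were lost with scaling by totals. In SC10, ABCD4 gave 0.11 (adjusted p = 0.131), which turned to -0.0041 with that scaling. ABCD2 had 2, 8 and 11 counts in the 3 clones and was not tested.

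The E and F proteins, which have no membrane domain, were led by ABCF2, the most abundant member per length, and split evenly in direction against SC01. ABCF2 measured 336, 347 and 352 CPM in SC01, 259, 248 and 267 in SC07, and 241, 253 and 260 in SC10. ABCF1, which acts in translation initiation, measured 159, 166 and 166 CPM in SC01, 127, 130 and 135 in SC07, and 125, 126 and 134 in SC10. Both were highest in SC01 without overlap, and SC07 and SC10 overlapped. ABCF2 fell by 0.42 ± 0.043 in SC07 and 0.46 ± 0.043 in SC10 on the log2 scale, and ABCF1 fell by 0.32 ± 0.044 and 0.35 ± 0.045. The ABCF2 exon bases are overlapped at 45.8%, with a gene on the same strand as the main overlapping gene, and how such reads were counted is not given.

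ABCE1, which splits ribosomes for recycling, measured 129, 124 and 119 CPM in SC01, 147, 147 and 143 in SC07, and 134, 135 and 132 in SC10. The clones were separate, with SC07 highest. The ABCE1 exon bases are overlapped at 11.9%, with ANAPC10 on the opposite strand as the main overlapping gene. The log2 change was 0.24 ± 0.043 in SC07, and that of 0.11 ± 0.044 in SC10 (adjusted p = 0.0298) turned to -0.0024 under scaling by totals. ABCF3 rose by 0.21 and 0.24, the former not past the threshold under scaling by totals. Per length, ABCF2 (mean 68.2 CPM per kb), ABCF1 (31.1) and ABCE1 (21.5) stood with ABCC2 (32.4) and ABCC4 (18.9) at the top of the family. Of the 4 genes, 2 were higher and 2 lower than in SC01 in each clone, where 62.0% and 65.9% of all genes passed (1 and 2 with scaling by totals), and their summed level was 701 ± 9.5, 614 ± 12 and 594 ± 14 CPM in SC01, SC07 and SC10. The potassium channel regulators ABCC8 (0, 1 and 9 counts) and ABCC9 (4, 1 and 2 counts) were not tested, while KCNJ11, the pore-forming partner of ABCC8, rose by 3.19 ± 0.39 and 4.13 ± 0.35 to 1.02 and 1.95 CPM.

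Other genes around these transporters differed in both directions, and the counts of each list stand beside 62.0% of all genes called in SC07 against SC01, 65.9% in SC10 against SC01 and 47.9% in SC10 against SC07. Of the 3 ABC genes outside the symbol rule, TAP2, a peptide transporter of antigen presentation, was higher than in SC01 (log2 0.99 in SC07 and 0.75 in SC10), while its partner TAP1 (-0.21 and -0.12) and the chloride channel CFTR (-0.91 and -1.5) were lower. Of 17 tested genes of sterol sensing and the LXR pathway, 9 were higher and 5 lower in SC07 and 7 and 9 in SC10 against SC01, and 2 and 8 in SC10 against SC07. NR1H3, the LXR-alpha receptor that drives ABCA1 and ABCG1 in macrophages, stood at 7.43 ± 0.78, 9.40 ± 0.23 and 17.8 ± 0.98 CPM (log2 0.34 and 1.26 against SC01). The more abundant NR1H2, the LXR-beta receptor, stood at 122 ± 5.5, 121 ± 7.7 and 90.6 ± 2.3 CPM. It was lower in SC10 (log2 -0.43 against SC01) and did not pass in SC07. The partner receptors RXRA (-0.21 and -0.30) and RXRB (-0.12 and -0.48) were lower in both clones. The part of these receptors in the ABC results was not tested. APOE, a lipid acceptor, was higher by 2.19 and 1.28, and NPC1, the lysosomal cholesterol exporter, changed by -0.87 and -1.13.

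Of 9 tested regulators of efflux genes, 4 were higher and 4 lower in SC07 against SC01 (2 and 5 with scaling by totals), 2 and 4 in SC10 against SC01 (1 and 5), and 2 and 3 in SC10 against SC07. AHR, a xenobiotic receptor, fell by 1.67 and 1.27 on the log2 scale, and FOXO3 fell by 0.75 and 1.15. Of 18 genes of glutathione synthesis and conjugation, which supplies substrates of ABCC pumps, 12 were higher and 4 lower in SC07, against 31.5% and 30.5% of all genes (8 and 5 with scaling by totals), 10 and 4 in SC10, and 6 and 3 in SC10 against SC07. SLC7A11, the cystine importer, rose from 3.82 ± 0.069 CPM to 54.9 ± 0.69 and 23.4 ± 2.4, and GSR, glutathione reductase, rose by 1.22 and 1.25. Among the conjugating enzymes, MGST1 (-2.19 and -0.95), GSTM3 (-1.13 and -0.31) and GSTP1 (-0.70 and -0.28) were lower than in SC01. Of 7 tested drug transporters outside the ABC family, 3 were higher and 3 lower, 4 and 2, and 3 and 0, in the same order of pairs.

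Of 20 peroxisomal genes, partners of the D subfamily, 12 were higher and 5 lower in SC07 against SC01, where 62.0% of all genes passed (11 and 8 with scaling by totals), 10 and 6 in SC10 (9 and 9), and 3 and 6 in SC10 against SC07. ACSL1, which activates long chain fatty acids, rose by 1.07 and 1.19, and PEX6, an ATPase of peroxisomal import, fell by 0.88 and 0.87. Of 16 tested genes of haem and iron-sulphur cluster synthesis, 10 were higher and 3 lower in SC07, 10 and 3 in SC10 (7 and 4 with scaling by totals), and 4 and 6 in SC10 against SC07. ALAS1, the first enzyme of haem synthesis, rose by 1.24 and 1.18, while ALAD, the next enzyme, changed by -0.85 and -1.18.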

How the data were processed

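RNA was measured in 9 libraries, 3 per untreated clone. The deposited values are raw counts per Ensembl gene, made by the authors with HISAT2 and featureCounts on GRCh38 per the submitters' processing notes. Not given in the sources used are versions, annotation, strand use and the handling of multiply matching or overlapping reads, so counts of overlapping genes and near copies are uncertain. Names and positions came from GENCODE 29, which held 57055 of 60675 IDs and all 45 members. Libraries were grouped by their labels.

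Counts were filtered with edgeR's filterByExpr (18009 genes left), TMM-scaled, and fitted with the 9 libraries together by robust quasi-likelihood in edgeR 4.0.16 (R 4.3.3), with Benjamini-Hochberg adjustment over all genes and a threshold of 0.05. CPM values are TMM-scaled. Standard errors come from the log2 change and its F statistic and are too small where a clone held few counts. Intervals of count ratios are exact at 95% and, like the level of 3 counts, cover counting error only. The fits were tried on simulated counts with 200 changed genes, far fewer than were called here. The simulation therefore does not test the scaling of these data. Members given by library were ABCB1, ABCB5, ABCG1, those past the threshold by at least 2-fold with a mean of at least 1 CPM in the higher clone, and the 5 highest per kilobase. The members and gene lists (role groups of members, other ABC genes, sterol sensing, efflux regulators, glutathione, peroxisome, haem, potassium channel partners, other drug transporters and 5 marker lists) were chosen with earlier results of these data known. A few members and list genes are not reported here. One symbol of the haem list, ATPIF1, was not found. Promoter sequences came from RefSeq on GRCh38.p14, cut at GENCODE 29 exons. Alternatives were other scalings and filters, DESeq2 1.42.0, voom in limma 3.58.1, a minimum change of 1.5-fold, pairs alone, a replicate block and leaving out each library.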

Additional observations from a re-analysis of the deposited data

How the results depend on the processing

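Counts of ABC members past the threshold moved by over 1.5 times under 1 setting, a test against a minimum change of 1.5-fold. It left 11 members in SC07 against SC01 (8 higher, 3 lower), 17 in SC10 against SC01 (14 higher, 3 lower) and 6 in SC10 against SC07 (4 higher, 2 lower), as it asks for larger changes. Across the other scalings, filters, tools and fits of pairs alone, the counts were 21 to 28, 25 to 30 and 18 to 21 in the 3 pairs and 29 to 33 among the 3 clones. Leaving out 1 library at a time gave 25 to 29 (19 to 23 higher, 6 lower), 26 to 31 (19 to 23 higher, 7 to 8 lower), 16 to 21 (11 to 14 higher, 5 to 7 lower) and 30 to 33. With the replicate number as a block, 27, 29 and 20 members passed in the pairs and 32 among the clones. Deviations of libraries with the same number had correlations of -0.0195 to 0.0429, and those with different numbers -0.0406 to 0.0219. The labels do not say whether the numbers pair the libraries, and 3 libraries per clone are too few to decide it. A filter of 1 CPM in 3 libraries left ABCG1 untested.

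Directions turned only for log2 changes near 0. Scaling by totals gave -0.047 (ABCB8), -0.0036 (ABCC1) and -0.0060 (ABCC6) in SC07 against SC01, -0.086 (ABCB8), -0.0058 (ABCC1), -0.0041 (ABCD4) and -0.0024 (ABCE1) in SC10 against SC01, and -0.0022 (ABCC1) in SC10 against SC07. With no filter, ABCA8 gave 0.0045 in SC07 against SC01 and ABCC1 -0.0013 in SC10 against SC07. Leaving out 1 library at a time gave -0.16 to 0.095 (ABCA8), -0.15 to 0.043 (ABCB6) and -0.35 to 0.30 (ABCC6) in SC07 against SC01, and -0.077 to 0.023 (ABCB8) and -0.020 to 0.057 (ABCC1) in SC10 against SC07. ABCE1 alone of these had passed the threshold. The causes were not tested. Single counts limit ABCG1 and ABCA12, whose folds have wide counting intervals, and the 9 untested members held too few counts for the main fit. With no filter, ABCC8 passed in SC10 against SC01 and among the 3 clones. It rests on few counts, 0 in every SC01 library and 2, 1 and 6 in SC10.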
